A study of Mus musculus with 5 samples.

Results

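JunB CUT&RUN-seq peaks were examined around 10 genes of extracellular matrix turnover among 21938 protein-coding mouse genes: the matrix metalloproteinases Mmp2, Mmp3, Mmp9, Mmp13 and Mmp14, the related protease Adamts1, and the tissue inhibitors of metalloproteinases Timp1, Timp2, Timp3 and Timp4. The genes were chosen by family, and every peak with an edge within 50 kb of an annotated transcription start site (TSS) of one of them was taken, with peaks within 3 kb counted as promoter peaks. CUT&RUN-seq releases and sequences the DNA lying next to a protein held by an antibody in permeabilised cells, and the cells here were muscle stem cells (MuSCs) sorted fresh from mouse muscle. The JunB antibody was used in 3 Young libraries and 1 Aged library, and an antibody against H3K27ac, a histone mark found at active promoters and enhancers, in 1 library of unstated age. The sample labels give no strain, age in months or treatment for any library, and they name Young and Aged groups where the series' own design text names DMSO and MVC (Maraviroc) treatment. The labels were followed. The authors' reporting summary likewise counts 3 JunB libraries from young and 1 from aged mice. Their number of JunB peaks in aged mice, 14123, is the length of the Aged list. The Aged side has no replicate, and since an exact permutation test of 1 library against 3 cannot give a one-sided p below 0.250, no test was made between ages. The methods describe the H3K27ac library as CUT&RUN-seq of mouse MuSCs but also tie it to a human reference epigenome project, so its origin is uncertain, and each overlap with H3K27ac given here rests on it.

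Matrix metalloproteinases are secreted or membrane-anchored zinc enzymes that cleave collagens, laminins, fibronectin and proteoglycans. TIMPs bind their active sites and block them, and Timp2 also takes part with Mmp14 in the activation of the Mmp2 proenzyme. MuSCs lie beneath a basement membrane built from such substrates, so these enzymes and inhibitors act on the niche that the cells occupy. JunB is a subunit of AP-1, a dimer that binds the sequence TGACTCA, which reads TGAGTCA on the opposite strand, and several metalloproteinase promoters are textbook AP-1 targets.

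The DNA below shows where AP-1 letters stood, and did not stand, at the regions on which the results turn. Each line gives the plus strand of mm10, 5′ to 3′, with the letters of an AP-1 site or of the related CRE-like site TGACGTCA in capitals. The first 4 are stretches of 81 bp around a site in JunB regions shared by several libraries. The fifth is centred on the JunB summit of highest −log10 p near any of the 10 genes, where neither set of letters was found.
Timp2, upstream, chr11:118365292-118365372: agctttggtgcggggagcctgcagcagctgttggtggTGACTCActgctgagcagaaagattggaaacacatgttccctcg
Adamts1, near an internal start, chr16:85801856-85801936: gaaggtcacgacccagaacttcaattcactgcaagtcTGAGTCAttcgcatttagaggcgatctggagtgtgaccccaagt
Mmp14, inside the gene, chr14:54435580-54435660: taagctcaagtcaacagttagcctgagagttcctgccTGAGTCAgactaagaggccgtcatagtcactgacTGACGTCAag
Timp3, inside the gene, chr10:86339640-86339720: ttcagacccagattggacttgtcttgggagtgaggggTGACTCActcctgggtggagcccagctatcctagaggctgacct
Mmp2, intron, chr8:92835099-92835179: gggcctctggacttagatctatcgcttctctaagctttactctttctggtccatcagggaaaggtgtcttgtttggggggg

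Across the 10 genes, 48 JunB peaks fell into 25 separate regions once peaks sharing at least 1 bp were merged. Young replicates 1, 2 and 3 held 15, 6 and 5 of these peaks (8.67 ± 5.51, SD, n = 3), and the Aged library held 22. The Aged count lay above all 3 Young counts, but the lists themselves differ in the same order: 9534, 4884 and 3863 peaks in the Young lists and 14123 in the Aged list. As a share of its own list, the Aged library placed 0.156% of its peaks near the 10 genes, against 0.157%, 0.123% and 0.129% in Young replicates 1, 2 and 3. When each list was limited to its 3863 strongest peaks by −log10 p, the numbers near the 10 genes were 8, 3 and 5 in the Young lists and 5 in the Aged list, so the Aged count then lay inside the Young range. The larger Aged count near these genes was therefore not larger per listed peak than that of Young replicate 1. The part of list length, peak-calling threshold or age in it was not tested.

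**Figure D1:**
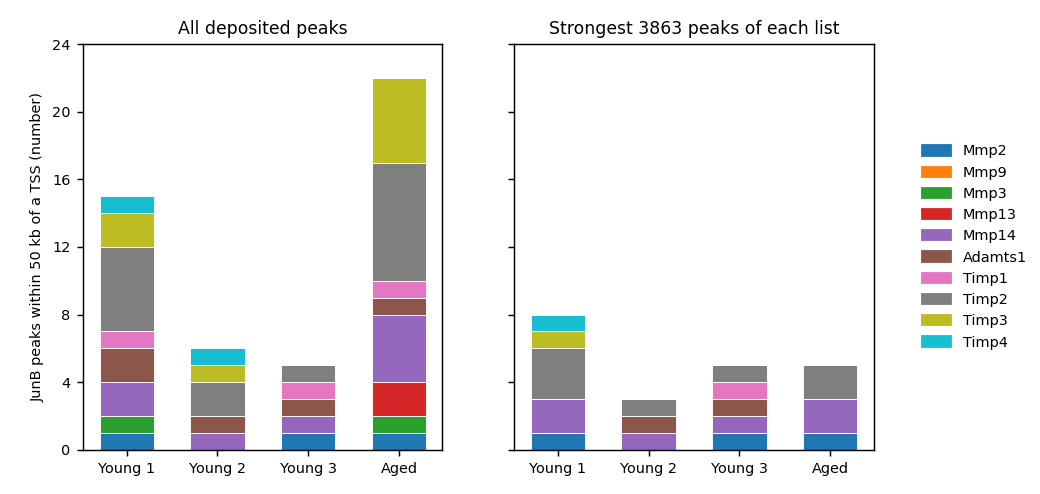
Number of JunB peaks within 50 kb of a TSS of each gene (colours) in the 3 Young libraries and the Aged library, for all deposited peaks (left) and for the 3863 strongest peaks of each list by −log10 p (right). The Aged bar falls from 22 to 5 and Young replicate 1 from 15 to 8, and Timp2 is the largest block in the Young replicate 1 and Aged bars on the left.

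The weakest listed peak had a −log10 p of 3.01 in both Young replicate 1 and the Aged list but 5.33 and 5.22 in Young replicates 2 and 3, so the lists had not passed a common threshold. No region of Young replicates 2 or 3 was missing from Young replicate 1, and all 12 Aged regions that overlapped a Young peak overlapped one of Young replicate 1. Of the 25 regions, 10 were found in the Aged library and some Young libraries, 2 in all 4 libraries, 10 in the Aged library alone and 3 in Young libraries alone. Over all 18879 merged JunB regions of the series, 13.1% were in all 4 libraries, 16.1% in the Aged library and some Young libraries, 45.0% in the Aged library alone and 25.8% in Young libraries alone. Regions of the Aged and some Young libraries were thus a larger share near the 10 genes than in the series, and those of Young libraries alone a smaller one, with no test of either. The Aged-alone count rested on the lists used: it was 0 with the 3863 strongest peaks of each list and 16 without Young replicate 1.

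Measured per megabase, the windows around the 10 genes held 14.4, 5.75 and 4.79 JunB peaks in Young replicates 1, 2 and 3 against 21.1 in the Aged library. The windows around all protein-coding genes held 4.81, 2.74, 2.16 and 7.87 in the same order. H3K27ac peaks stood at 39.3 per megabase near the 10 genes and 22.0 near all protein-coding genes. All 5 lists were thus denser in the pooled windows of these genes than in those of all protein-coding genes, in both ages. The genes were not alike in this. Timp2, Timp3 and Mmp14 held 7, 5 and 4 Aged peaks, against a mean of 1.21 per protein-coding gene. Mmp13 held 2, Mmp2, Mmp3, Adamts1 and Timp1 held 1 each, and Mmp9 and Timp4 held none. The genes were picked as a family with earlier results of these data known, so this is a description.

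A promoter JunB peak was found at 3, 1 and 2 of the 10 genes in Young replicates 1, 2 and 3 against 4 in the Aged library. Of all protein-coding genes, 11.0%, 7.74% and 5.91% had one by the Young lists and 23.9% by the Aged list. At least 1 Young library had one at 3 genes (Mmp14, Adamts1 and Timp1), against 12.7% of all genes. Adamts1 alone had one in all 4 libraries, against 4.36% of all genes, and Timp3 alone had an Aged one without any Young one, against 13.1%. No gene had one in Young libraries only, a pattern seen at 1.94% of all genes. Promoter H3K27ac stood at 5 genes (Mmp2, Mmp14, Adamts1, Timp2 and Timp3), close to the 49.8% of all genes that carried it.

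Within 50 kb, JunB peaks were found at 8, 5 and 5 of the 10 genes in Young replicates 1, 2 and 3 against 8 in the Aged library. The corresponding shares of all protein-coding genes were 40.4%, 27.5%, 23.4% and 58.4%, and for H3K27ac, found at 8 of the 10, the share was 76.6%. At least 1 Young library had a peak at 8 genes against 43.9% of all genes, and all 4 libraries had one at 3 genes, Mmp14, Adamts1 and Timp2, against 19.0%. Mmp9 was the one gene of the 10 with no JunB peak in any library.

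**Figure D2:**
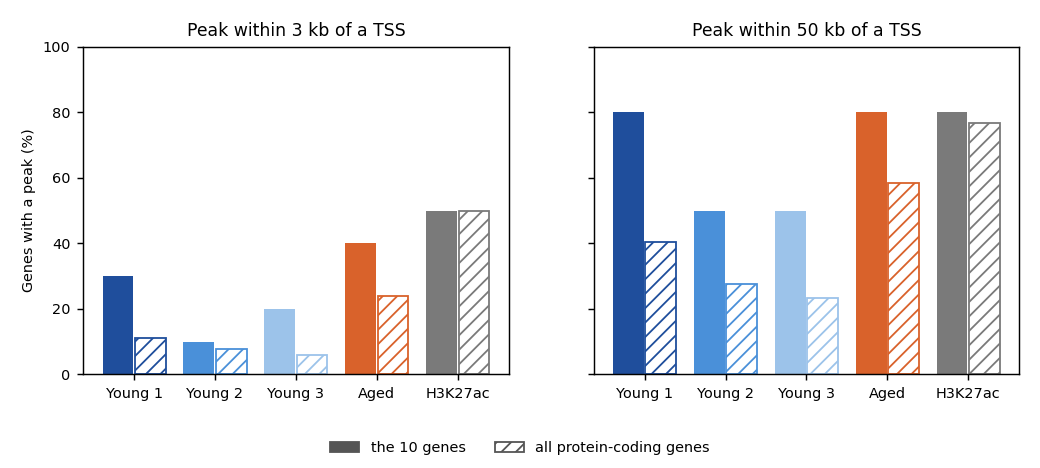
Percent of the 10 genes (solid bars) and of all 21938 protein-coding genes (hatched bars) with a peak within 3 kb (left) or 50 kb (right) of a TSS in each of the 5 libraries. For H3K27ac the solid and hatched bars are nearly level in both panels, and the solid JunB bars are the taller ones in every library, with 1 of 10 genes behind the bar for Young replicate 2 on the left.

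By position, 5 regions were within 3 kb of a TSS of the gene they were counted for, and 20 lay farther from it. Some of these 20 were within 3 kb of another gene's TSS. They were the Mmp14 regions at 0 bp from Lrp10, 141 bp from Mrpl52 and 2441 bp from 5430430K15Rik. In the annotation, 5 regions overlapped an exon, 11 lay in introns and 9 between genes. The same position shares were not computed over all merged JunB regions, so these counts cannot be called high or low. For 16 regions the nearest protein-coding TSS was that of the gene itself, and for 9 it belonged to a neighbour. Nearness was the only link used between a region and a gene.

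H3K27ac overlapped 13 of the 25 regions (52.0%, exact 95% interval 31.3 to 72.2, counting error only), against 42.6% of all merged JunB regions. Among single libraries, 10 of 15, 5 of 6 and 3 of 5 Young peaks overlapped it (66.7%, 83.3% and 60.0%, mean 70.0 ± 12.0, SD, n = 3), and 11 of 22 Aged peaks did. Exact 95% intervals, for counting error within a library only, were 38.4 to 88.2, 35.9 to 99.6 and 14.7 to 94.7 in Young replicates 1, 2 and 3. The Aged interval was 28.2 to 71.8, and it does not measure spread between libraries. Across the whole lists the shares were 46.9%, 61.6%, 61.0% and 47.3% in the same order. By sharing, H3K27ac overlapped both regions of all 4 libraries, 7 of the 10 in the Aged and some Young libraries, 2 of the 10 Aged-alone regions and 2 of the 3 Young-alone regions. Over all merged JunB regions, the shares were 69.9%, 62.2%, 36.0% and 28.1% in the same order, so a lower share in Aged-alone than in shared regions was also seen across the series. In the other direction, 12 of the 41 H3K27ac peaks near these genes overlapped a JunB peak and 29 did not. This share was not computed over the whole H3K27ac list, so the count cannot be called high or low.

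**Figure D3:**
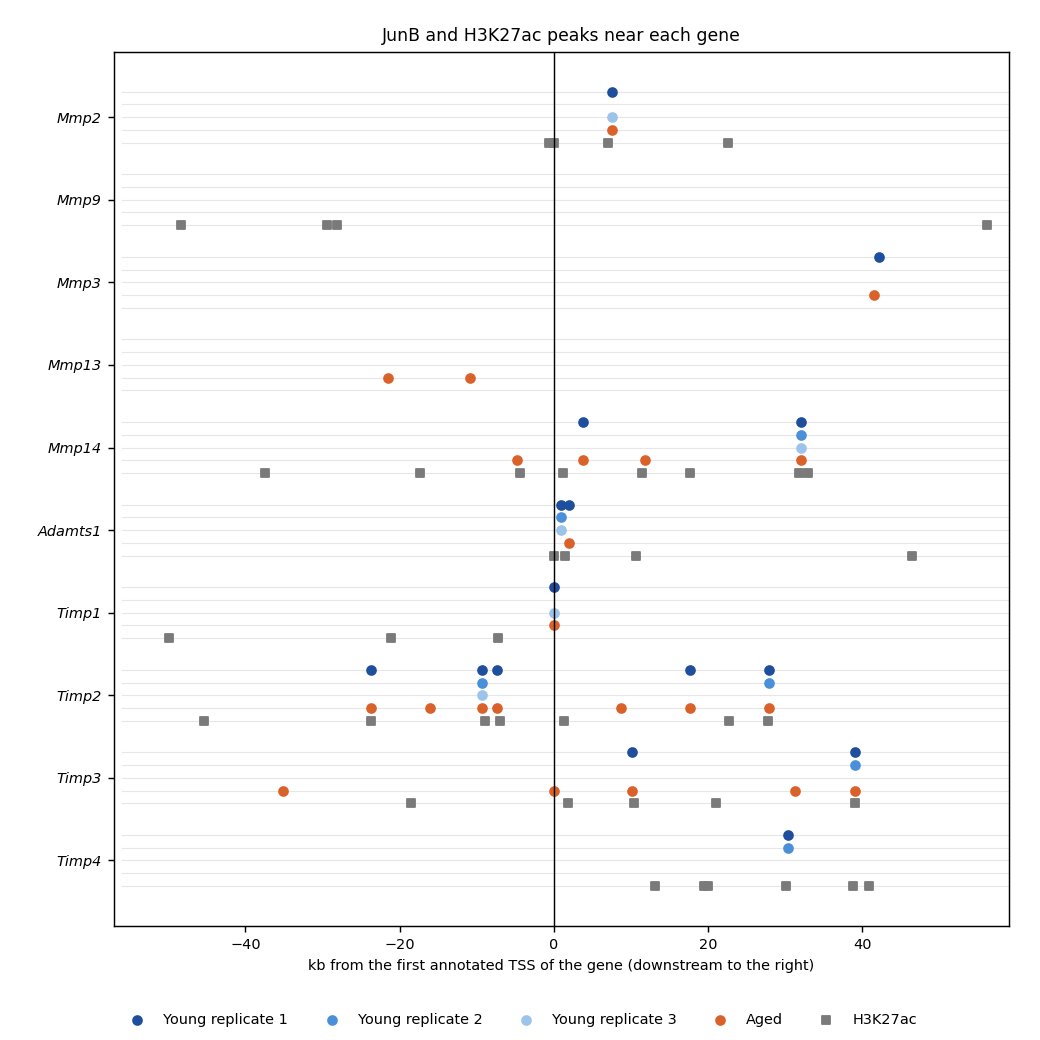
Positions of JunB peaks (circles, 1 line per library) and H3K27ac peaks (squares) around each of the 10 genes, in kb from the first annotated TSS with downstream to the right. JunB circles crowd around Timp2, Timp3 and Mmp14 and sit at the start of Adamts1 and Timp1, and the Mmp9 lines hold H3K27ac squares only.

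The gelatinases Mmp2 and Mmp9 degrade denatured collagen and the type IV collagen of basement membranes, and their neighbourhoods differed. Mmp2 (ENSMUSG00000031740.8, chr8:92827291-92853420, plus strand) had 1 JunB region, chr8:92834774-92835363, in an intron 7483 bp past the first TSS and 4821 bp before an internal one. Its fold enrichment over local background was 12.3 in Young replicate 1, 8.08 in Young replicate 3 and 7.79 for the Aged library. Young replicate 2 listed no peak there. The −log10 p values were 32.2, 13.1 and 15.1, and the Young replicate 1 and Aged peaks stood among the top 9.07% and 11.2% of their lists. The Young replicate 1 peak had the highest fold and −log10 p of the JunB peaks near the 10 genes. By place in its own list, an Aged peak upstream of Timp2 stood ahead of it, at 8.82%, in a region that held an AP-1 site. The 3 summits of the Mmp2 region lay within 10 bp of each other. An H3K27ac peak covered the region with a fold of 3.81, and another lay 73 bp past the first TSS with a fold of 3.94 and no JunB peak.

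Mmp9 (ENSMUSG00000017737.2, chr2:164940780-164955850, plus strand) had 4 H3K27ac peaks within 50 kb and none within 3 kb. The nearest, 28187 bp upstream with a fold of 5.82, spanned the TSS of the neighbour Zfp335 and stood among the top 3.23% of H3K27ac peaks. The Mmp9 locus thus showed neither JunB peaks nor a marked promoter in these lists.

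Mmp3, or stromelysin-1, cleaves proteoglycans and activates other metalloproteinases, and Mmp13, or collagenase-3, cleaves fibrillar collagen. Both genes lie in the metalloproteinase cluster of chromosome 9, and neither had an H3K27ac peak within 50 kb. Mmp3 (ENSMUSG00000043613.8, chr9:7445822-7455975, plus strand) had an Aged peak 41499 bp past its TSS with a fold of 5.19 and a −log10 p of 7.25. A Young replicate 1 peak lay 313 bp beyond it with a fold of 3.74 and a −log10 p of 4.77. The 2 peaks did not overlap, and both were nearer to the TSS of Mmp10. Every base of both was soft-masked as repeat in the reference genome, which held for at least 90% of bases in 17.4% of all Young replicate 1 peaks, 11.3% of Aged peaks, and 2.04% and 1.61% of peaks in Young replicates 2 and 3.

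Mmp13 (ENSMUSG00000050578.10, chr9:7272514-7283331, plus strand) had 2 peaks, both upstream and both in the Aged library alone. The stronger, chr9:7261407-7261672, lay 10842 bp before the TSS with a fold of 5.66 and a −log10 p of 8.84. The weaker lay 21567 bp before the TSS with a fold of 4.04 and a −log10 p of 5.05, at 83.2% of its list. Counts of 2 or more Aged peaks within 50 kb were found at 31.7% of all protein-coding genes.

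The promoters of these same 2 genes were the ones that held an AP-1 site among the 8 of the 10 genes with a promoter window in RefSeq (GRCm38.p6). A window ran from 250 bases before to 50 after the start, and 5.20% of all 32851 windows held TGACTCA or TGAGTCA. The upstream stretches are shown with the site in capitals.
Mmp3, upstream of the start, chr9:7445739-7445819: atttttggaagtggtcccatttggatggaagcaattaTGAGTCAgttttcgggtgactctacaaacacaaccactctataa
Mmp13, upstream of the start, chr9:7272442-7272513: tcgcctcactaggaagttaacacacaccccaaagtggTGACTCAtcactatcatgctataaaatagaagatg
The site lay 46 to 40 bases before the start in Mmp3 and 35 to 29 bases before it in Mmp13. Neither promoter had a JunB peak or an H3K27ac peak within 3 kb in any library. The JunB peaks of both genes lay farther off, at the distances given above, and held no AP-1 site.

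Mmp14 is the membrane-anchored collagenase that activates Mmp2. The gene (ENSMUSG00000000957.11, chr14:54431612-54445364, plus strand) had 4 JunB regions and 8 H3K27ac peaks within 50 kb, and 8.52% of protein-coding genes had as many H3K27ac peaks or more. One region, chr14:54463609-54464137, was found in all 4 libraries, with folds of 7.47, 7.29 and 8.90 in Young replicates 1, 2 and 3 against 7.48 in the Aged library. The Aged fold lay within the Young range, and an H3K27ac peak overlapped the region. It lay 31997 bp past the first TSS of Mmp14, however, across the TSS of Lrp10, a lipoprotein receptor-related gene. Inside Mmp14, the region chr14:54435330-54435857 lay 3718 bp past the first TSS and 2735 bp before an internal one, which makes it a promoter region by the 3 kb rule. Young replicate 1 had a fold of 8.32 there and the Aged library 7.26, with −log10 p values of 17.0 and 13.8, and Young replicates 2 and 3 listed no peak. It held 2 AP-1 sites and the 1 CRE-like site of the 25 regions, and no H3K27ac peak overlapped it. The remaining 2 regions were in the Aged library alone, overlapped H3K27ac and had folds of 5.17 and 4.60. The one of fold 5.17 lay 4844 bp before the first TSS of Mmp14 but 141 bp from the TSS of the neighbour Mrpl52. The H3K27ac peak it overlapped spanned the Mrpl52 TSS. Several of the 8 H3K27ac peaks were likewise nearer to Slc7a7, Mrpl52 or Lrp10 than to Mmp14.

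Adamts1 is a secreted protease that cleaves the proteoglycans aggrecan and versican. The gene (ENSMUSG00000022893.14, chr16:85793827-85803113, minus strand) had 2 JunB regions, both at its start and 471 bp apart. The first, chr16:85801649-85802157, lay 956 bp past the first TSS and 168 bp before an internal one. All 3 Young libraries had a peak in it, with folds of 4.21, 6.0 and 7.18 and −log10 p values of 7.02, 11.6 and 12.0, and the Aged library listed none. The second, chr16:85800902-85801177, in an intron, was found in Young replicate 1 with a fold of 4.77 and in the Aged library with a fold of 3.41 and a −log10 p of 5.07. The Adamts1 promoter was therefore occupied in all 4 libraries by the 3 kb rule, but no single region was. In the Young region the AP-1 site printed above lay 36, 71 and 128 bp from the summits of replicates 1, 2 and 3. An H3K27ac peak covered most of the second region and touched the first over 53 bp, at the edge of the Young replicate 1 peak.

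Timp1 is a secreted inhibitor with growth-factor-like activity on some cells, and its gene lies inside an intron of Syn1 (ENSMUSG00000001131.11, chrX:20870166-20874735, plus strand). Its 1 JunB region, chrX:20869687-20870165, ended at the base before the TSS. Young replicate 1 had a fold of 4.98 there, Young replicate 3 a fold of 6.87 and the Aged library a fold of 3.11, and Young replicate 2 listed no peak. The Aged fold was the lowest of the 3, and its −log10 p of 3.40 and −log10 q of 0.771 ranked it at 99.3% of the Aged list, where 100% is the weakest peak. The 3 summits spread over 215 bp. No H3K27ac peak lay nearer than 7268 bp. The 250 bases before the start, which the Young replicate 1 and 3 summits fall in, hold neither an AP-1 nor a CRE-like site.
Timp1, upstream of the start, chrX:20869916-20870165: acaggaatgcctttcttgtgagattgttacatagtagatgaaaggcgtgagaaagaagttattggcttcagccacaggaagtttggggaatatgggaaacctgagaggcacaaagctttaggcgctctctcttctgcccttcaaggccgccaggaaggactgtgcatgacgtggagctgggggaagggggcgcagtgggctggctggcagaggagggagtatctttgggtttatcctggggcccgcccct

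Timp2 both inhibits metalloproteinases and, at the cell surface, joins Mmp14 to the Mmp2 proenzyme. The gene (ENSMUSG00000017466.9, chr11:118301069-118355740, minus strand) had the most JunB regions of the 10, with 7, and none was within 3 kb of a TSS. Young replicates 1, 2 and 3 listed 5, 2 and 1 peaks there and the Aged library 7. As many or more were found at 1.14% of protein-coding genes in Young replicate 1, 8.18% in Young replicate 2, 23.4% in Young replicate 3 and 0.725% for the Aged library. The locus thus stood high in both longer lists, and in Young replicate 3 its count was an ordinary one.

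One Timp2 region, chr11:118365096-118365621, was found in all 4 libraries, 9356 bp upstream of the TSS with no nearer protein-coding start. Its fold was 6.17, 6.22 and 8.65 in Young replicates 1, 2 and 3 against 3.84 in the Aged library, with −log10 p values of 10.7, 11.6, 14.4 and 5.37. The Aged peak was thus the weakest of the 4 and did not overlap the Young values. Its place in its own list, 73.4%, was close to that of Young replicate 2, 73.6%, and behind 37.5% and 47.2% in Young replicates 1 and 3. The AP-1 site printed above lay 42, 110 and 67 bp from the Young summits and 88 bp from the Aged summit. An H3K27ac peak with a fold of 3.06 covered it.

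Farther upstream, 23668 bp from the TSS, the region chr11:118379408-118379868 held the strongest Timp2 peaks of the Aged library (fold 8.50, −log10 p 16.8, top 8.82% of its list) and of Young replicate 1 (fold 7.87, −log10 p 15.7, top 24.5%). Young replicates 2 and 3 listed none there, and the region overlapped an H3K27ac peak of fold 5.83. The TSS of Lgals3bp was nearer to it than that of Timp2. In a Timp2 intron, the region chr11:118327187-118327784 had folds of 7.54 in Young replicate 1, 5.94 in Young replicate 2, and 7.22 for the Aged library, also with H3K27ac. The TSS of Cep295nl, 6232 bp away, was nearer to it than that of Timp2, 27722 bp away. The other 4 Timp2 regions were in the Aged library, with folds of 3.49 to 5.38, and 2 of them also in Young replicate 1. Among these 4, the regions of Aged fold 5.05 and 3.49 were nearer to Cep295nl too, at 3630 and 4266 bp. H3K27ac at the Timp2 promoter itself was weak, with a fold of 2.20 that ranked at 99.5% of the H3K27ac list.

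Timp3 is the inhibitor that stays bound to the matrix and also blocks ADAM and ADAMTS proteases. Its gene (ENSMUSG00000020044.13, chr10:86300372-86349506, plus strand) lies within Syn3 and had 5 JunB regions. One, chr10:86300359-86300700, spanned the first TSS and was found in the Aged library alone, with a fold of 4.41, a −log10 p of 6.27 and a place at 58.6% of the list. No H3K27ac peak overlapped it, and the nearest began 1889 bp past the first TSS, at an internal start. At 3.44% of protein-coding genes the Aged library listed as many peaks as the 5 at Timp3, or more.

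The region chr10:86339410-86340286, 39038 bp past the first TSS, was shared by 3 libraries, with folds of 6.29 in Young replicate 1, 5.47 in Young replicate 2, and 5.39 for the Aged library, and overlapped H3K27ac. Its AP-1 site lay 73 and 64 bp from the 2 Young summits and 223 bp from the Aged one. The site was inside the Young replicate 1 and Aged peaks but just outside the edge of the Young replicate 2 peak. Another region, 10100 bp past the first TSS, had folds of 5.62 in Young replicate 1, and 5.05 for the Aged library. The H3K27ac peak beside it overlapped the Aged peak and missed the Young one by 1 bp, so that difference in overlap is one of peak edges. The strongest Aged peak lay 35142 bp upstream in a Syn3 intron (fold 5.58, −log10 p 8.41), with no Young peak and no H3K27ac.

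Timp4, the last inhibitor, lies within Syn2 (ENSMUSG00000030317.8, chr6:115241892-115252205, minus strand). Its 1 JunB region, chr6:115221554-115221863, lay 29985 bp past the nearest TSS and nearer to the start of Gm17482. Young replicate 1 had a fold of 7.59 there and Young replicate 2 a fold of 6.39, at 25.2% and 82.6% of their lists, and Young replicate 3 and the Aged library listed none. H3K27ac overlapped it, and the nearest H3K27ac peak to the Timp4 start lay 12707 bp away.

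Set side by side, the 6 proteases held 11 regions, with 6, 2 and 3 peaks in Young replicates 1, 2 and 3 against 9 in the Aged library. The 4 inhibitors held 14 regions, with 9, 4 and 2 Young peaks and 13 Aged peaks. Timp2 alone accounted for 7 of the 14. Enzymes and inhibitors thus both had the most peaks in the longest list, and promoter peaks were found on both sides.

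Where the Aged library shared a region with Young libraries, its peak was not uniformly stronger or weaker. Over these 12 regions its fold enrichment was below every Young value at 8, above every one at 2 and between them at 2. By place in its own list, the Aged peak stood ahead of every Young peak at 5 regions, behind every one at 4 and between them at 3. Fold and place are each relative to their own library, whose median fold over the whole list was 5.20, 7.74 and 8.11 in Young replicates 1, 2 and 3 against 4.93 in the Aged library.

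**Figure D4:**
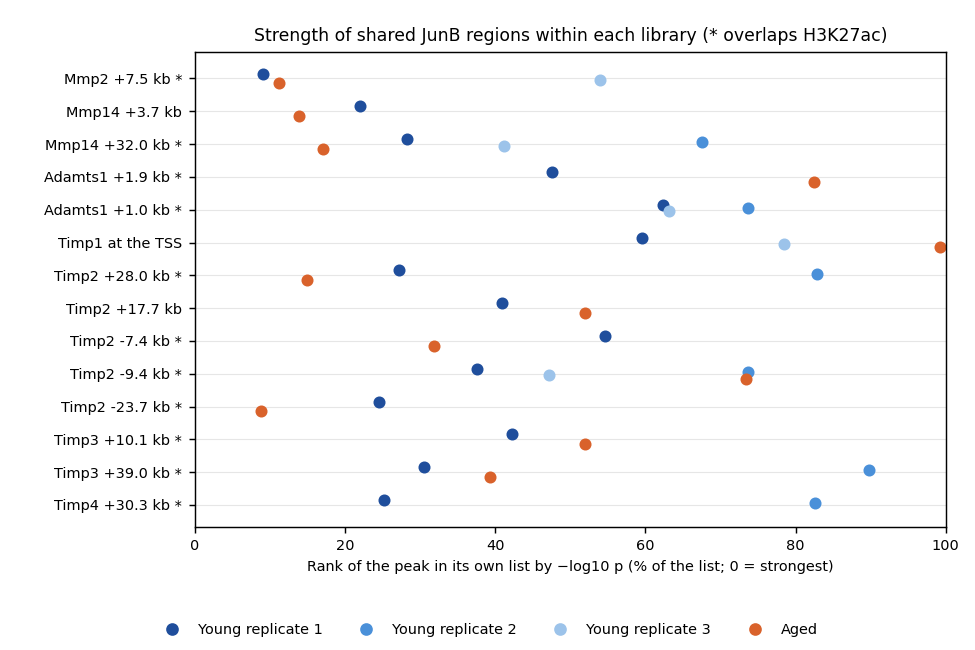
Place of each JunB peak in its own list by −log10 p (0% strongest, 100% weakest) for the 14 regions found in at least 2 of the 4 JunB libraries, named by gene and kb from the first TSS. The Aged circle lies left of all Young circles at 5 regions, those of Mmp14 and 3 of Timp2, and right of them at 4, at Adamts1, Timp1, Timp2 and Timp3.

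Of the 25 regions, 9 held an AP-1 site anywhere in the region, 4 at Timp2, 3 at Timp3 and 1 each at Mmp14 and Adamts1, and 3 of the 9 were Aged-alone regions. By library, 6 of 15, 2 of 6 and 2 of 5 Young peaks and 8 of 22 Aged peaks held one. The shares over whole lists were 32.2%, 38.3% and 39.2% of Young peaks, 22.5% in the Aged library and 15.9% in H3K27ac peaks, which are wider. Within 50 bp of a summit, a site was found at 2 of the 15 Young replicate 1 peaks and at 0 of the peaks in each other JunB library, where 5.24%, 5.87%, 7.21% and 3.59% of all peaks had one. At these numbers of peaks, a share near 0 and one near the whole-list share cannot be told apart. The Mmp2 intronic region held none.

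The wider family of matrix proteases was read in the same way over 37 other genes: the remaining Mmp genes, the membrane-bound inhibitor Reck and the other Adamts genes. A promoter JunB peak was found at 2, 1 and 0 of them in Young replicates 1, 2 and 3 (5.41%, 2.70% and 0.0%) and at 7 in the Aged library (18.9%), below the shares of all protein-coding genes given above in every library. In the Aged library alone they were Mmp11, Mmp17, Adamts2, Adamts3, Adamts4 and Adamts9, with −log10 p values of 5.22 to 10.7. Adamts5, an aggrecan-cleaving protease, had one in the Aged library (6.66) and in Young replicates 1 (8.19) and 2 (8.21), and Adamts14 had one in Young replicate 1 alone (9.73). No gene of this list had a promoter peak in all 4 libraries, and 13 of the 37 (35.1%) had promoter H3K27ac, against 49.8% of all protein-coding genes. Within 50 kb, 16, 9 and 7 of them had a Young peak (43.2%, 24.3% and 18.9%, against 40.4%, 27.5% and 23.4% of all genes) and 26 an Aged peak (70.3% against 58.4%). The lower shares at promoters were thus not seen within 50 kb in Young replicate 1 or the Aged list. Aged promoter peaks were thus at 4 of the 10 genes described here and at 7 of the 37 others, small counts that were not tested against each other.

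As a check of the cell type, promoter H3K27ac was found at 5 of 8 MuSC markers (Myod1, Cdh15, Vcam1, Itga7 and Sdc4, and not Pax7, Myf5 or Calcr). It was found at 0 of 4 immune markers, at 2 of 4 fibro-adipogenic markers (Cd34 and Dcn), at 2 of 4 endothelial markers (Pecam1 and Tek) and at 2 of 4 smooth muscle markers (Acta2 and Des). Since 49.8% of all protein-coding genes had promoter H3K27ac, these counts say little about the cell type, and the defining MuSC gene Pax7 was without it. Metalloproteinase and TIMP genes are used by these other cell types too. The part of such cells in the peaks described here was not tested.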

How the data were processed

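Peak lists of 5 CUT&RUN-seq libraries of mouse MuSCs were used: 3 Young and 1 Aged JunB libraries and 1 H3K27ac library of uncertain origin. The authors mapped trimmed reads with Bowtie2 on mm10, discarded redundant ones and ran MACS2 on each library. Their versions and any control library are not given in the sources used here. The deposited lists give each peak's fold enrichment, a ratio of summit pileup to local background, with its −log10 p and −log10 q. These values are relative to each library, and the cutoffs reached differ between lists, so no read depth stands behind a value and peaks were only ranked or filtered by them. The authors' methods state a single p cutoff, equal to a −log10 p of 3. The lists of Young replicates 2 and 3 stopped at 5.33 and 5.22 instead, for a reason not given. The score column was not used.

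Peaks on the assembled chromosomes with an edge within 50 kb of any GENCODE M21 TSS of a gene were taken, and JunB peaks sharing at least 1 bp were merged. Promoter meant within 3 kb. The background was 21938 protein-coding genes. Motifs were searched on both strands, in RefSeq GRCm38.p6 sequence, the assembly mm10 names. Sharing between libraries means overlap of listed peaks, and an unlisted peak is not an absence of binding. Young values are mean ± SD over 3 libraries called biological replicates. Exact binomial intervals are at 95%.

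The genes, the list of 37 family genes and the markers were chosen with earlier results of these data known. All 10 genes were named, with promoter regions, regions of all 4 JunB libraries and the strongest Aged and Young peak of each. The other named values, among them the repeat shares, the Aged place in shared regions and the count without Timp2, were added after seeing the data. Alternatives covered the window, the promoter limit, −log10 p and −log10 q thresholds, equal numbers of strongest peaks, the overlap and each left-out Young library. Python 3.11.15, numpy 2.4.6, scipy 1.17.1 and matplotlib 3.10.9 were used, and overlap, merging and the motif scan were checked on simulated intervals with bedtools 2.31.1 as the reference.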

Additional observations from a re-analysis of the deposited data

How the results depend on the processing

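Of 94 values recomputed under 12 alternatives, 76 moved by less than the set limit and 18 by more. That limit was wide, so a value within it was not necessarily close. For counts it was a ratio that still took in 37 regions, with the 100 kb window, against 25. For the Young mean of 8.67 peaks it was the SD between Young libraries, 5.51, which no alternative passed. For the percent of regions on H3K27ac it was the Young SD of 12.0. Limiting each JunB list to its 3863 strongest peaks changed most: 10 regions, 5 Aged peaks (Young mean 5.33), 1 region in all 4 libraries, 0 in the Aged library alone, 5 in Young libraries alone, 1 gene with an Aged promoter peak (Mmp14) and 70.0% of regions on H3K27ac. A 20 kb window left 15 regions, 14 Aged peaks, 1 region in all 4 libraries, 6 Aged-alone and 1 Young-alone, and a 100 kb window gave 16 Aged-alone and 6 Young-alone. At a common −log10 p of at least 5.33, 2 genes kept an Aged promoter peak (Mmp14 and Timp3), since those of Adamts1 and Timp1 fell below it. A promoter limit of 1 kb left 3 genes with an Aged promoter peak, and so did measuring distance from the peak summit. Mmp14 was the gene lost in both, as its region lay 2735 bp from the nearest Mmp14 TSS. Leaving out each Young library in turn gave 2 to 4 regions found in all remaining libraries and 10 to 16 Aged-alone regions, the 16 without Young replicate 1. Without Timp2, a check added after seeing the data, 18 regions and 15 Aged peaks were left against a Young mean of 6. No paired analysis was possible because the Aged group is 1 library, so the groups cannot share more than 1 replicate number, and its label gives none. With 1 Aged library, no read counts and unequal cutoffs, a region listed in 1 library and not in another cannot be told apart from one just below the cutoff.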

Other observations

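The 2 peaks beyond Mmp3 lie in the metalloproteinase cluster of chromosome 9, and within 50 kb they also count for Mmp10. Mmp1a, Mmp1b, Mmp10 and Mmp12 each had 1 Young replicate 1 peak and 1 Aged peak within 50 kb. For Mmp1a, Mmp1b and Mmp12 these need not be the same 2 peaks. None of the 4 had a promoter JunB peak, and Mmp7 and Mmp8 had no JunB peak within 50 kb in any library. The strongest H3K27ac peak near any of the 10 genes lay 45438 bp upstream of Timp2, at the TSS of Lgals3bp, with a fold of 5.60 and a −log10 p of 37.0 (top 1.81% of the list), and no JunB peak overlapped it.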
